A study of Mus musculus with 6 samples.

Results

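The 31 genes described here encode glucose carriers, the enzymes of glycolysis, lactate and pyruvate dehydrogenase with the kinases that switch the latter off, and the enzymes that build and break down glycogen. They were chosen by symbol, and each was represented by the probe set of highest mean signal among those that carry its symbol alone. Such a probe set was found for 28 of the 31, out of 18194 genes in all, and each of the 28 was above the filter on dim genes, which 11255 genes passed. Gpi1, Pfkfb1 and Eno1 were not analysed here. Heart RNA of male mice aged 2 months was measured on 6 Affymetrix arrays, 2 for each of 3 groups. RKIP-transgenic mice expressed RKIP, an inhibitor of RAF kinase and of G-protein-coupled receptor kinases, from the alpha-MHC promoter, which is active in the myocardium. GRK-Inh-transgenic mice had a peptide inhibitor specific for those receptor kinases (GRK), also expressed in the myocardium. The third group was wild-type B6 mice, and the strain background of all 3 groups is labelled B6. Each transgenic group is labelled as a single mouse line. Nothing in the labels tells if the 2 arrays of a group are 2 animals or 1, and the p-values therefore cover only the spread between these arrays, which may be technical.

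The heart takes up glucose through the carriers encoded by Slc2a1 (GLUT1, largely independent of insulin) and Slc2a4 (GLUT4, moved to the membrane by insulin), and hexokinases trap it as glucose 6-phosphate. That product enters glycolysis, where phosphofructokinase is the main control point, or is stored as glycogen. Pyruvate from glycolysis is reduced to lactate or is taken into mitochondrial oxidation by pyruvate dehydrogenase, which pyruvate dehydrogenase kinases inhibit. The adult heart burns mainly fatty acids, and greater reliance on glucose is a known feature of the fetal and of the overloaded heart.

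Signals are linear, and their trimmed mean was 300.002 on each of the arrays, as deposited. Pebp1, the mouse gene of RKIP, gave 9102 and 9140.4 in RKIP-transgenic, 9079 and 9296 in GRK-Inh-transgenic and 9292 and 8766 in control hearts (RKIP-transgenic against control 0.015 ± 0.041, adjusted p = 0.866), so the RKIP label, by which the group is named here, is not borne out by that probe set. The name of that probe set ends in _x_at, the array maker's mark for probes that may bind other sequences too. Whether it detects the transgene's transcript was not tested, since the labels do not give the species or the transcribed sequence of the transgene. The median signal per array was 50.3 to 55.0. The control probe sets had 3'/5' ratios of 0.955 to 1.08 for Gapdh and 2.92 to 3.25 for actin, and the higher actin ratios, 3.11 and 3.25, were those of the control hearts. The 10 cardiomyocyte markers were bright on every array, with summed signals of 258870 to 272730, and 1 rose and 1 fell in the RKIP-transgenic comparison with control. Fast skeletal muscle, which shares isoforms of several glycolytic enzymes with the heart, was represented by 10 markers. Their summed signal was 360.1 to 659 over the 6 arrays. Of the 10, 7 were below the filter level, among them Myh1, Myh2, Myh4 and Actn3, and of the other 3, 1 fell in each line. Red blood cell markers summed to 85.0 to 197, over the 5 of 10 with a probe set.

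Of the 28 members tested, 9 rose and 3 fell in RKIP-transgenic hearts against B6 control. In GRK-Inh-transgenic hearts 8 rose and 1 fell. With the arrays shifted to one median, 9 rose and 1 fell in RKIP-transgenic and 11 rose and 1 fell in GRK-Inh-transgenic hearts. A gene was called here, that is, said to rise or fall, at an adjusted p under 0.05 in a limma model over the 6 arrays (Benjamini-Hochberg over all genes tested, two-sided). Over all genes tested, 10.8% were called in the RKIP-transgenic comparison (5.33% higher and 5.52% lower), against 42.9% of the members. In the GRK-Inh-transgenic comparison 13.1% of all genes were called (5.85% higher and 7.25% lower), against 32.1% of the members. Between the transgenic lines 8.84% of all genes were called (4.47% higher and 4.37% lower in RKIP-transgenic hearts), and so were 6 of the members (21.4%), 3 in each direction.

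The share called was higher among brighter genes. Among the 6304 genes at least as bright as the dimmest member, 17.2% were called in the RKIP-transgenic and 19.9% in the GRK-Inh-transgenic comparison. Between the lines it was 13.6%. The members' shares beside these were 42.9%, 32.1% and 21.4%. The members' median SE was 0.051 on the log2 scale, against 0.115 over all genes. Among the 563 genes at least as bright as the median member, with signals from about 5000 upwards, 29% were called in the RKIP-transgenic and 25.9% in the GRK-Inh-transgenic comparison. Of the 14 members in that range, 6 and 3 were called. Between the lines 14.7% of these bright genes and 0 of the 14 members were called by limma (3 members at an unadjusted p under 0.05). The members' median log2 fold change was 0.079 in RKIP-transgenic and 0.070 in GRK-Inh-transgenic hearts, and that of all genes tested was -0.017 and -0.031. Over the alternatives the members' medians ranged from 0.046 to 0.13 and from 0.058 to 0.12. The 3 calls that passed under every alternative tried were Slc2a1 and Pfkfb2 in RKIP-transgenic hearts and Pgam1 in GRK-Inh-transgenic hearts. The alternative of each probe set alone read these calls from the same brightest probe set. Pgam1 has only 1, so averaging could not change its value. In RKIP-transgenic hearts a dimmer probe set of Slc2a1 (0.45, limma adjusted p = 0.0792) and one of Pfkfb2 (0.42, adjusted p = 0.117) did not pass. The other dimmer ones of these genes passed there. A variance without a trend along the mean level left 2 called members in each comparison with control and 1 between the lines.

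**Figure D1:**
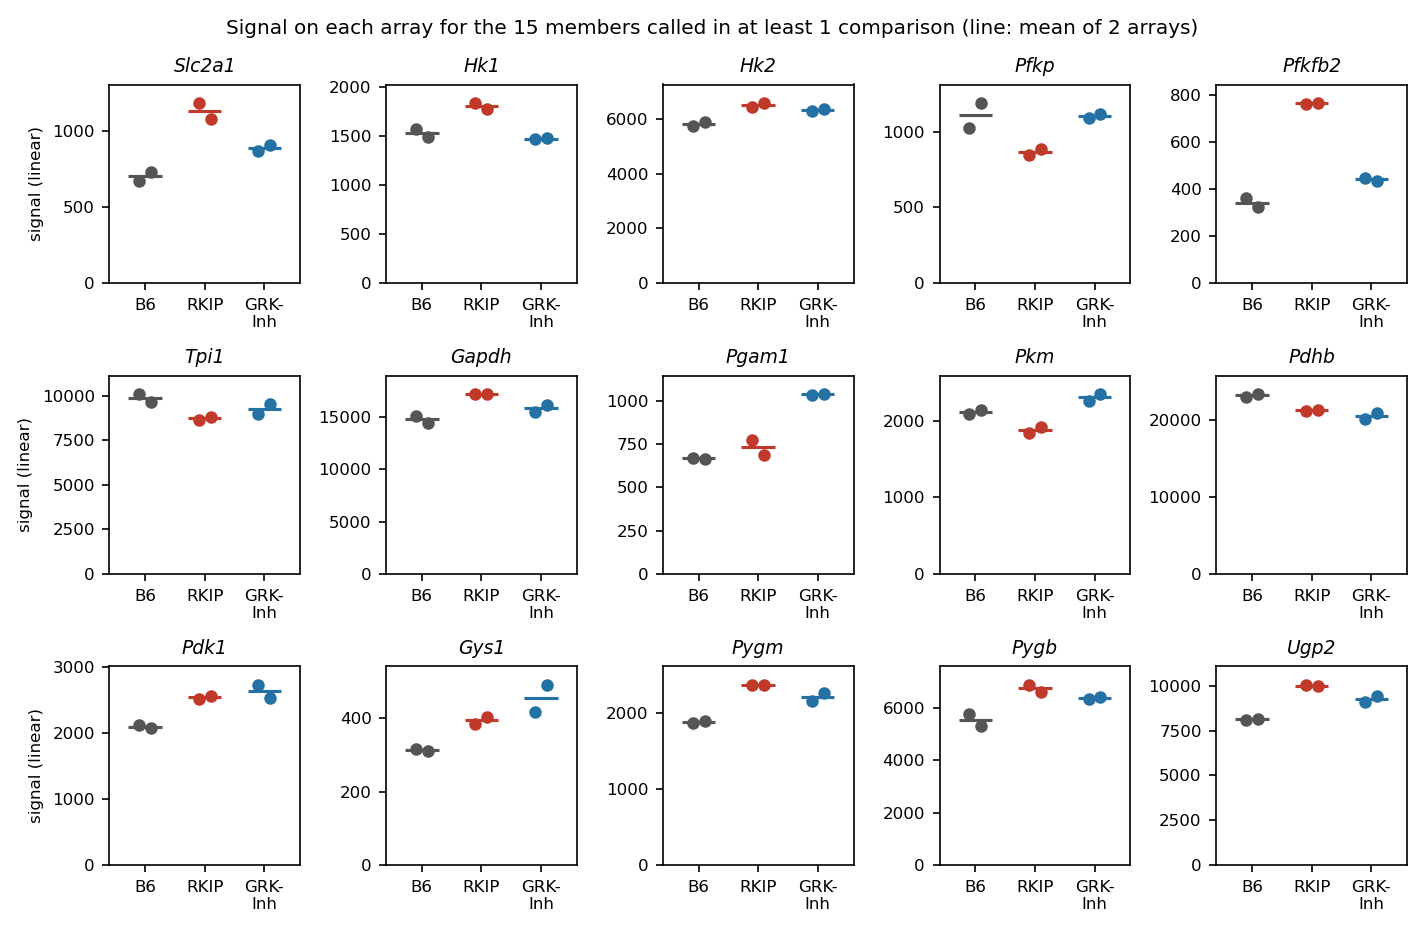
Linear signal (vertical axis, starting at 0) on each array for the 15 members called in at least 1 of the 3 comparisons, by group (B6 control, RKIP-transgenic, GRK-Inh-transgenic), with points for the 2 arrays and a line at their mean. Slc2a1 and Pfkfb2 are highest in RKIP-transgenic hearts and Pgam1 in GRK-Inh-transgenic hearts, whereas Hk2, Tpi1, Gapdh and Pdhb differ by small parts of their level.

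At the point of glucose entry, the carrier gene Slc2a1 gave signals of 1184 and 1073 on the RKIP-transgenic arrays, 864 and 904 on the GRK-Inh-transgenic arrays and 671 and 726 on the control arrays. The 3 groups did not overlap, with RKIP-transgenic hearts highest. Separation from control was common over the 11255 genes tested. Of these genes, 24.2% had RKIP-transgenic signals wholly above control and 29.2% wholly below it. For GRK-Inh-transgenic signals the shares were 23.7% and 33.2%. A lack of overlap, here and below, therefore describes the signals and is not a test. Slc2a1 rose in RKIP-transgenic hearts (log2 fold change 0.65 ± 0.079, the error being 1 SE, adjusted p = 0.000466) and also in GRK-Inh-transgenic hearts (0.32 ± 0.079, adjusted p = 0.0221). The second call was lost without GRK-Inh array 1, GRK-Inh array 2 or B6 array 1, and with the gene's probe sets averaged (adjusted p 0.0102 to 0.133 over the alternatives). Slc2a4, the insulin-responsive carrier gene, gave 4396 and 4158 in RKIP-transgenic, 3551 and 4009 in GRK-Inh-transgenic and 4063 and 4019 in control hearts. It did not pass in either line, and the 95% confidence intervals of its log2 fold change were -0.053 to 0.21 in RKIP-transgenic and -0.23 to 0.035 in GRK-Inh-transgenic hearts. The interval of Slc2a1 in RKIP-transgenic hearts, 0.48 to 0.83, did not reach that of Slc2a4.

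Both hexokinase genes rose in RKIP-transgenic hearts, by small amounts. Hk2, the main isoform of adult heart and skeletal muscle, gave 6421 and 6598 there against 5736 and 5880.3 in control hearts (log2 difference 0.16 ± 0.041, adjusted p = 0.0287). Its signals in GRK-Inh-transgenic hearts, 6308 and 6378, were above both control arrays too, but the difference did not pass (0.13 ± 0.041, adjusted p = 0.0690). At an adjusted p under 0.05 it passed only with the arrays shifted to one median or with only genes above the upper quartile tested. Hk1, the broadly expressed isoform, gave 1840.5 and 1773 in RKIP-transgenic, 1467 and 1479.8 in GRK-Inh-transgenic and 1574 and 1492 in control hearts. It rose in RKIP-transgenic hearts (0.23 ± 0.060, adjusted p = 0.0331) and did not pass in GRK-Inh-transgenic hearts (-0.055 ± 0.060, adjusted p = 0.597), and the difference between the lines passed (0.29 ± 0.060, adjusted p = 0.0144). The calls of Hk1 and Hk2 against control were both lost when any 1 array of either group was left out (adjusted p 0.0234 to 0.551 over the alternatives for Hk1 and 0.0199 to 0.225 for Hk2). Averaging the probe sets of Hk1 also ended its call and gave 0.13, and its second probe set, tested alone, gave 0.025. The call of Hk1 between the lines was lost without RKIP array 1, GRK-Inh array 1 or GRK-Inh array 2, and with the probe sets averaged (adjusted p 0.00924 to 0.198 over the alternatives).

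At the step of phosphofructokinase, the muscle subunit gene Pfkm had signals of 8872 and 8469 in control hearts. No call was made in RKIP-transgenic (0.063 ± 0.039, adjusted p = 0.354) or GRK-Inh-transgenic hearts (0.12 ± 0.039, adjusted p = 0.0699), although the second value passed with quantile normalization and with the arrays shifted to one median (adjusted p 0.0320 to 0.327 over the alternatives). The liver subunit gene Pfkl had signals of 274 to 310.2 over the 6 arrays and log2 fold changes of -0.044 and 0.075, neither of which passed. The platelet subunit gene Pfkp gave 849 and 887 in RKIP-transgenic hearts, below the 1028 and 1195 of control and the 1092 and 1118 of GRK-Inh-transgenic hearts, which overlapped each other. It fell in RKIP-transgenic hearts against control (-0.34 ± 0.080, adjusted p = 0.0228) and was lower there than in the GRK-Inh line (-0.33 ± 0.080, adjusted p = 0.0297). The first of these calls was lost without RKIP array 1, RKIP array 2 or B6 array 2 (adjusted p 0.0189 to 0.770 over the alternatives), and the second without any 1 of the 4 arrays (adjusted p 0.0166 to 0.704 over the alternatives). Both were also lost with the gene's probe sets averaged, which gave -0.056 and -0.073. That average included a probe set below the filter. The other Pfkp probe set above the filter, tested alone, pointed the other way against control (0.25) and did not pass.

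Pfkfb2 encodes the heart isoform of the enzyme that makes and removes fructose 2,6-bisphosphate, the allosteric activator of phosphofructokinase. Its signals were 766 and 769.8 in RKIP-transgenic, 448 and 436 in GRK-Inh-transgenic and 362 and 325 in control hearts, with no overlap between the groups. Pfkfb2 had the largest change of the 28 members in RKIP-transgenic hearts, a mean signal 124% above control (log2 fold change 1.06 ± 0.090, adjusted p = 4.2e-05). In GRK-Inh-transgenic hearts it rose by less (0.32 ± 0.090, adjusted p = 0.0383), a call that was lost when any 1 array of either group was left out (adjusted p 0.0184 to 0.176 over the alternatives). The difference between the lines passed (0.73 ± 0.090, adjusted p = 0.000646). The gene's other 3 probe sets, tested alone, gave 0.45, -0.13 and -0.037 between the lines and did not pass, and with the 4 averaged the difference was 0.25 and did not pass either.

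The promoter sequences of 5 members are shown because these genes carry the contrasts above and below: Slc2a1, Pfkfb2 and Ugp2 rose in both lines, Pgam1 rose in GRK-Inh-transgenic hearts, and Ldha, a textbook target of the hypoxia-inducible factor HIF1, did not pass in any comparison. Each is the 250 bases upstream of the first transcription start listed for the gene in RefSeq (build GRCm38.p6), 5′ to 3′ on the gene's strand. Capitals mark ACGTG and GCGTG on either strand, the core letters of the HIF1 response element. The first of them is also held by the E-box CACGTG.
Slc2a1, chr4:119108495-119108744, plus strand: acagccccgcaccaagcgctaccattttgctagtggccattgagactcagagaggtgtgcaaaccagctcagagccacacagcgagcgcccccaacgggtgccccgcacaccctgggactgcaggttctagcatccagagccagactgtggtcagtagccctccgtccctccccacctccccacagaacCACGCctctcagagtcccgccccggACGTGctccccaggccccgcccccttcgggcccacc
Pfkfb2, chr1:130715822-130716071, minus strand: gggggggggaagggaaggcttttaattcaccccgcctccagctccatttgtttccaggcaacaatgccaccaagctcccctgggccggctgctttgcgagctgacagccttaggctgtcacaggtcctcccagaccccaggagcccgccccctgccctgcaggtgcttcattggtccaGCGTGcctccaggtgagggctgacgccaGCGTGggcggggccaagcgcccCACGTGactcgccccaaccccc
Ugp2, chr11:21371268-21371517, minus strand: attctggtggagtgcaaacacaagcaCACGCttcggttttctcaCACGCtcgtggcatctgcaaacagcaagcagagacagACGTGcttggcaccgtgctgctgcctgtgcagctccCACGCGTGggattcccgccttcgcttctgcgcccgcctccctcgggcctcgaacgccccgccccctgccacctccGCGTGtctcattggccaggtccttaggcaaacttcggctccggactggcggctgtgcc
Pgam1, chr19:41911621-41911870, plus strand: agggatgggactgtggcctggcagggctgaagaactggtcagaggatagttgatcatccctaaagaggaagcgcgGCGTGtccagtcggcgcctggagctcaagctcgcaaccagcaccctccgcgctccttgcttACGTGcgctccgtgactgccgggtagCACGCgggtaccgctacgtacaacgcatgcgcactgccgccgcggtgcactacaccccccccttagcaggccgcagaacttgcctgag
Ldha, chr7:46845554-46845803, plus strand: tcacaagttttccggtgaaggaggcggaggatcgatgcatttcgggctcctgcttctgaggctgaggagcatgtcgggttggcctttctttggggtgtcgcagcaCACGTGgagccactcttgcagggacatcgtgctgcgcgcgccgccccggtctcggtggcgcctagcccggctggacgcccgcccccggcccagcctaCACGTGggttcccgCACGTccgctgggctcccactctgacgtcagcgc
One or the other core was found in 33 of the 48 promoters listed for 30 of the members (68.8%), against 38.6% of all 32851 promoters in the table. Promoters of neighbouring starts of a gene, such as those of Eno1, can overlap and share a site. By gene, 25 of the 30 held a core in any listed promoter. The share over all genes is not given here, and a gene with several starts has more promoters to hold one. The called members Tpi1 and Gys1 held none. Base composition was not compared between the members' promoters and the others. ACGTG was in 35.4% of the members' promoters and in 16.6% of all, GCGTG in 50% and 28.2%, and the E-box in 8.33% and 6.02%. The Ldha promoter held 5 matches of ACGTG, counted on both strands, and 2 E-boxes. Slc2a4 had no entry. Which of several starts the heart uses was not measured. A match of letters is a description of the sequence only.

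**Figure D2:**
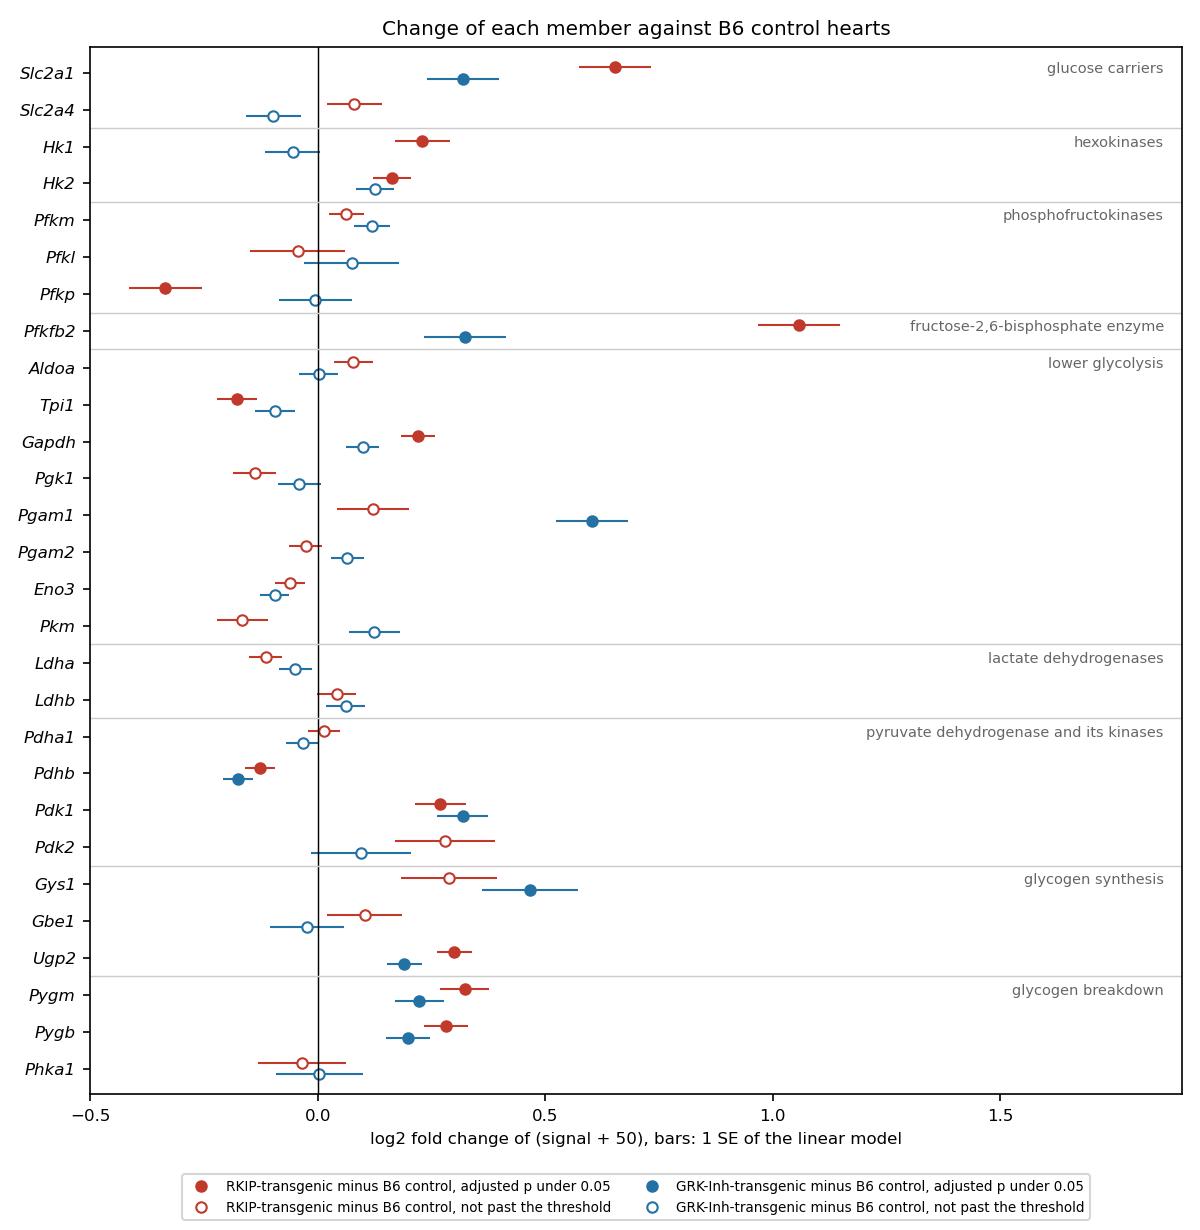
Log2 fold change of signal plus 50 (horizontal axis, bars of 1 SE of the linear model) against B6 control for each of the 28 members, grouped by role, in RKIP-transgenic (red) and GRK-Inh-transgenic hearts (blue), with filled points at an adjusted p under 0.05. Pfkfb2 at 1.06 and Slc2a1 at 0.65 lie farthest to the right in red and Pgam1 at 0.60 in blue. Both lines share the control arrays. The lactate dehydrogenase genes lie between -0.11 and 0.061, none of them called.

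Of the 8 genes tested between aldolase and pyruvate kinase, 1 rose and 1 fell in RKIP-transgenic hearts and 1 rose in GRK-Inh-transgenic hearts. Gapdh, the gene of the dehydrogenase that gives glycolysis its NADH, was measured by the array's own control probe sets, and its brightest gave 17130.0 and 17211 in RKIP-transgenic, 15487 and 16088 in GRK-Inh-transgenic and 15054 and 14423 in control hearts. The groups did not overlap for this probe set. Gapdh rose in RKIP-transgenic hearts (log2 fold change 0.22 ± 0.037, adjusted p = 0.00362), and did not pass in GRK-Inh-transgenic hearts (0.099 ± 0.037, adjusted p = 0.105), where it did with quantile normalization and with the arrays shifted to one median. Its 3 control probe sets, along the 3', middle and 5' part of the transcript, gave 0.13, 0.22 and 0.20 in the RKIP-transgenic comparison. Tested alone, the 3' set did not pass there (limma adjusted p = 0.0511). In the GRK-Inh-transgenic comparison they gave -0.026, 0.099 and 0.082, and none passed. The 3' signals of that line, 14654 and 14780, lay below the control signals of 15189 and 14792. Other Gapdh probe sets are assigned to its pseudogenes as well and were left out. Tpi1, the triosephosphate isomerase gene, gave 8617 and 8835 in RKIP-transgenic, 8974 and 9534 in GRK-Inh-transgenic and 10124 and 9634 in control hearts. Its fall in RKIP-transgenic hearts (-0.18 ± 0.044, adjusted p = 0.0269) was lost without RKIP array 1, RKIP array 2 or B6 array 1, with the arrays shifted to one median, and with the probe sets averaged, at -0.11 (adjusted p 0.0217 to 0.230 over the alternatives). The gene's other 2 probe sets had log2 fold changes of -0.068 and -0.084 and did not pass.

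Pgam1, the phosphoglycerate mutase gene of most tissues, showed the largest change of the members in GRK-Inh-transgenic hearts. Its signals were 1036 and 1042 there, 670.2 and 664 in control and 774 and 689 in RKIP-transgenic hearts, so that both GRK-Inh arrays lay above all 4 others. The log2 fold change against control was 0.60 ± 0.079 in GRK-Inh-transgenic (adjusted p = 0.000584) and 0.12 ± 0.079 in RKIP-transgenic hearts (adjusted p = 0.380). Between the lines Pgam1 was lower in RKIP-transgenic hearts (-0.48 ± 0.079, adjusted p = 0.00382). The muscle isoform gene Pgam2, at 9795 and 9512 in control hearts, had log2 fold changes of -0.026 and 0.065 in the RKIP and GRK-Inh lines, and did not pass.

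Pkm, the gene of pyruvate kinase, gave 1838 and 1924 in RKIP-transgenic, 2262 and 2358 in GRK-Inh-transgenic and 2092 and 2138 in control hearts. The lines lay on opposite sides of control without passing against it (log2 fold change -0.17 ± 0.056, adjusted p = 0.0891 in RKIP-transgenic and 0.12 ± 0.056, adjusted p = 0.171 in GRK-Inh-transgenic hearts). Between the lines Pkm was the lower in RKIP-transgenic hearts (-0.29 ± 0.056, adjusted p = 0.00907), a call lost without RKIP array 1 or GRK-Inh array 2. The aldolase gene Aldoa, the phosphoglycerate kinase gene Pgk1 and the muscle enolase gene Eno3 did not pass in any comparison. Their log2 fold changes were 0.078, -0.14 and -0.061 in RKIP-transgenic and 0.0022, -0.040 and -0.095 in GRK-Inh-transgenic hearts.

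Neither lactate dehydrogenase gene was called. Ldha, whose subunit favours lactate formation, gave 10370.0 and 10481 in RKIP-transgenic, 10858 and 10966 in GRK-Inh-transgenic and 11124 and 11466 in control hearts. Both lines lay below both control arrays, as did 29.2% of all genes tested in RKIP-transgenic and 33.2% in GRK-Inh-transgenic hearts. The log2 fold changes of Ldha were -0.11 ± 0.036, adjusted p = 0.0712 and -0.049 ± 0.036, adjusted p = 0.414. The 95% interval of the first, -0.19 to -0.035, lay below 0. With quantile normalization, or with only genes above the upper quartile tested, the first of these passed (adjusted p 0.0300 to 0.361 over the alternatives). Ldhb, the gene of the subunit that predominates in heart, had mean signals of 19881 ± 1184, 20142 ± 58.9 and 19305 ± 522 (± SD, n = 2) in the RKIP, GRK-Inh and control groups. Its 95% intervals were -0.052 to 0.13 and -0.032 to 0.15 on the log2 scale against control.

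At pyruvate dehydrogenase, the kinase gene Pdk1 rose and the E1 beta subunit gene Pdhb fell in both lines. Pdk1 gave 2511 and 2567 in RKIP-transgenic and 2735 and 2526 in GRK-Inh-transgenic hearts, all 4 above the control signals of 2119 and 2077. Its log2 fold change was 0.27 ± 0.056 (adjusted p = 0.0121) in RKIP-transgenic and 0.32 ± 0.056 (adjusted p = 0.00361) in GRK-Inh-transgenic hearts. The first call was lost without RKIP array 2, B6 array 1 or B6 array 2 (adjusted p 0.00970 to 0.119 over the alternatives). Both were lost with the probe sets averaged, at 0.24 and 0.17. That average included a probe set below the filter, with signals of 19.5 to 31.4 over the arrays. Pdhb gave 21145 and 21292 in RKIP-transgenic, 20121 and 20899 in GRK-Inh-transgenic and 22978 and 23363 in control hearts, and the control arrays were the highest. It fell by 0.13 in RKIP-transgenic (adjusted p = 0.0334) and by 0.18 in GRK-Inh-transgenic hearts (adjusted p = 0.00508) on the log2 scale. The call in RKIP-transgenic hearts was lost without any 1 array of either group, with quantile normalization and with the arrays shifted to one median (adjusted p 0.0258 to 0.326 over the alternatives), and that in GRK-Inh-transgenic hearts without GRK-Inh array 1 (adjusted p 0.00378 to 0.183 over the alternatives). With the gene's probe sets averaged both calls were lost, at -0.099 and -0.10, and the second Pdhb probe set gave -0.072 and -0.031.

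The catalytic partner Pdha1 did not pass in either line (log2 fold changes 0.014 ± 0.036 and -0.033 ± 0.036). Pdk2, another kinase of the complex, gave 536 and 432 in RKIP-transgenic, 411 and 423 in GRK-Inh-transgenic and 399 and 376 in control hearts. All 4 transgenic arrays were above the control arrays, and RKIP array 1 stood highest. Of all genes tested, 24.2% lay wholly above control in RKIP-transgenic and 23.7% in GRK-Inh-transgenic hearts. The differences of Pdk2 did not pass (0.28 ± 0.11, adjusted p = 0.139 and 0.094 ± 0.11, adjusted p = 0.628).

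The glycogen genes gave 3 of the 6 members that rose in both lines. Pygm, the muscle isoform of glycogen phosphorylase, which releases glucose 1-phosphate from glycogen, gave 2367 and 2377 in RKIP-transgenic, 2161 and 2259.9 in GRK-Inh-transgenic and 1871 and 1902 in control hearts. The 3 groups did not overlap, in that order. Pygm rose by 0.32 ± 0.054 on the log2 scale in RKIP-transgenic (adjusted p = 0.00347) and by 0.22 ± 0.054 in GRK-Inh-transgenic hearts (adjusted p = 0.0192). Pygb, the phosphorylase isoform named for brain, showed the same order, with 6898 and 6624, 6332 and 6420.0 and 5787 and 5329. It rose by 0.28 ± 0.049 (adjusted p = 0.00436) and 0.20 ± 0.049 (adjusted p = 0.0216). In the GRK-Inh line the call of Pygm was lost when any 1 array of either group was left out (adjusted p 0.00940 to 0.128 over the alternatives), and that of Pygb without GRK-Inh array 1, GRK-Inh array 2 or B6 array 2 (adjusted p 0.0123 to 0.182 over the alternatives). Phka1, a regulatory subunit of the kinase that activates phosphorylase, had overlapping signals of 492 to 575 and did not pass in any comparison.

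On the side of synthesis, Ugp2 encodes the enzyme that makes UDP-glucose, the donor for glycogen. It gave 10070.0 and 9962 in RKIP-transgenic, 9094 and 9458 in GRK-Inh-transgenic and 8103 and 8146 in control hearts, without overlap. Ugp2 rose by 0.30 ± 0.038 (adjusted p = 0.000655) and by 0.19 ± 0.038 (adjusted p = 0.00761) on the log2 scale, and the second call was lost without GRK-Inh array 2 (adjusted p 0.00334 to 0.156 over the alternatives). The glycogen synthase gene Gys1 gave 384 and 404, 415 and 491 and 316 and 311 in the RKIP, GRK-Inh and control groups. All 4 transgenic arrays were above control, and GRK-Inh array 2 was the highest. Gys1 rose in GRK-Inh-transgenic hearts (0.47 ± 0.11, adjusted p = 0.0146) and did not pass in RKIP-transgenic hearts (0.29 ± 0.11, adjusted p = 0.115), and the difference between the lines did not pass either (-0.18 ± 0.11, adjusted p = 0.357). The call was lost without GRK-Inh array 2, B6 array 1 or B6 array 2, and with the probe sets averaged, at 0.32 (adjusted p 0.00929 to 0.121 over the alternatives). Gbe1, the gene of the branching enzyme, had signals of 764 to 908 and did not pass in any comparison.

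Over the members as a whole, 6 rose in both lines (Slc2a1, Pfkfb2, Pdk1, Pygm, Pygb and Ugp2), 1 fell in both (Pdhb) and 13 were called in no comparison. The lines were compared with the same control arrays, so that a high or low control array moves both values. The share of all genes called in both lines is not given here, so these shared calls have no background to be set against. Hk1, Hk2, Pfkp, Tpi1 and Gapdh were called in RKIP-transgenic hearts alone, and Pgam1 and Gys1 in GRK-Inh-transgenic hearts alone. Of these 7, the direct comparison of the lines called Hk1, Pfkp and Pgam1. It also called Slc2a1, higher in RKIP-transgenic hearts (0.33 ± 0.079, adjusted p = 0.0264), a call lost without RKIP array 1, GRK-Inh array 1 or GRK-Inh array 2, and with the probe sets averaged (adjusted p 0.0215 to 0.182 over the alternatives). Leaving out 1 array reduced the RKIP-transgenic count of 12 to 7 without RKIP array 1, B6 array 1 or B6 array 2, and to 6 without RKIP array 2. The GRK-Inh-transgenic count of 9 went to 4 without GRK-Inh array 1, 3 without GRK-Inh array 2 and 5 without either control array. Between the lines the count of 6 went to 2 without RKIP array 1, 5 without RKIP array 2 and 3 without either GRK-Inh array.

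Of the 28 members, 17 had more than 1 probe set above the filter, which allowed a check within the gene. All tested probe sets of a gene pointed the same way for 14 of the 17 in the RKIP-transgenic and for 11 in the GRK-Inh-transgenic comparison, and no gene had probe sets called in both directions. These values come from a fit of all 19782 probe sets above the filter, each tested alone. The 5 probe sets of Ugp2 all rose in RKIP-transgenic hearts, by 0.21 to 0.35 on the log2 scale. So did the 3 of Pdk1, by 0.27 to 0.43, while only the brightest of the 3 passed in GRK-Inh-transgenic hearts (0.32 against 0.091 and 0.21 for the others). For Pfkfb2 the probe set of highest signal gave 1.06 in RKIP-transgenic and 0.32 in GRK-Inh-transgenic hearts, whereas a dimmer one gave 0.57 and 0.70.

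Aldoa and Pgk1 each had a probe set that departed from the gene's others. The Aldoa probe set of lowest signal gave 5349 and 5867 in RKIP-transgenic hearts, 2072 and 2246 in GRK-Inh-transgenic and 2609 and 2290 in control hearts. It rose in RKIP-transgenic hearts by 1.18 on the log2 scale, while the 4 brighter probe sets gave 0.028 to 0.18, of which the last also passed (adjusted p = 0.0291). The dimmest Pgk1 probe set fell in both lines, by 0.78 in RKIP-transgenic and 0.71 in GRK-Inh-transgenic hearts, beside -0.14 and -0.10 in RKIP-transgenic hearts for the other 2. All 5 Aldoa probe sets and 2 of the 3 of Pgk1, the dimmest included, have names ending in _x_at, the array maker's mark for probes that may bind other sequences too. Among the other probe sets used, those of Tpi1, Ldhb, Gaa and Phkg1 have the same ending. Which transcripts all of these measured was not tested. With a gene's probe sets averaged, 9 members were called in RKIP-transgenic and 7 in GRK-Inh-transgenic hearts, among them Aldoa (higher in RKIP-transgenic hearts) and Pgk1 (lower in both).

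**Figure D3:**
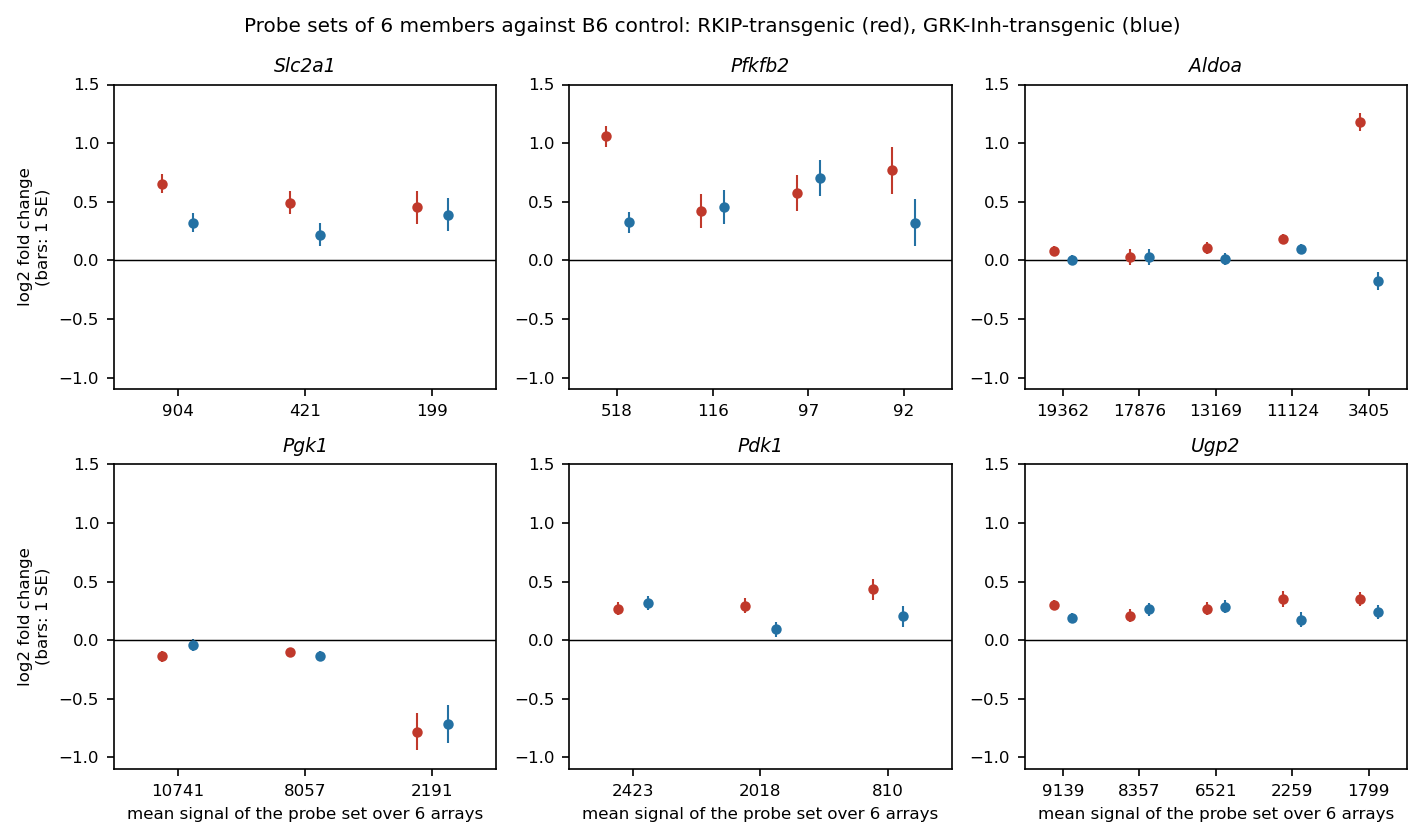
Log2 fold change against B6 control (vertical axis, bars of 1 SE) of each probe set above the filter for 6 members, ordered by mean signal over the 6 arrays (horizontal axis), in RKIP-transgenic (red) and GRK-Inh-transgenic hearts (blue). The probe sets of Ugp2, Slc2a1 and Pdk1 all lie above 0, whereas for Aldoa only the dimmest lies far from 0 in red, at 1.18, and for Pgk1 only the dimmest lies far below it, at -0.78 and -0.71.

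Genes around the members were read from 11 lists fixed by pathway. Over all genes tested, 10.8% were called in the RKIP-transgenic and 13.1% in the GRK-Inh-transgenic comparison, and 8.84% between the lines. The shares of the further glycolytic genes (12.5% in each line) and of the hexosamine genes (14.3% in each line) were near these. Of 14 genes of pyruvate and lactate handling, 1 rose and 3 fell in RKIP-transgenic hearts, and 1 rose and 2 fell in GRK-Inh-transgenic hearts. Pdk4, the kinase gene induced by fatty acids and fasting, fell in RKIP-transgenic hearts from 8929 ± 58.6 to 4806 ± 80.5 (mean signal ± SD, n = 2, log2 fold change -0.89 ± 0.041, adjusted p = 4.9e-07). It rose to 11370.0 ± 362 in GRK-Inh-transgenic hearts (0.35 ± 0.041, adjusted p = 0.000267) and differed between the lines (-1.23 ± 0.041, adjusted p = 3.1e-08). Pdk1 and Pdk4 moved in opposite directions in RKIP-transgenic hearts. The phosphatase gene Pdp2, whose product reactivates pyruvate dehydrogenase, fell in both lines (by 0.54, adjusted p = 0.00669, and 0.53, adjusted p = 0.00600), and both calls were lost without B6 array 1. Bsg, which encodes the chaperone that brings lactate carriers to the membrane, rose in RKIP-transgenic hearts (0.30 ± 0.041, adjusted p = 0.000998) and was above the GRK-Inh line there (0.32 ± 0.041, adjusted p = 0.000793). A second phosphatase gene, Pdp1, fell in the GRK-Inh line alone (-0.40 ± 0.066, adjusted p = 0.00228), and the difference between the lines passed (0.47 ± 0.066, adjusted p = 0.00153).

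Of 19 further glycogen genes, 5 rose and 2 fell in RKIP-transgenic and 2 rose in GRK-Inh-transgenic hearts. Ppp1r3c, which encodes a scaffold that brings protein phosphatase 1 to glycogen and favours its synthesis, rose from 3189.8 and 2953 in control hearts to 4896 and 4959 in RKIP-transgenic and 5023 and 5078 in GRK-Inh-transgenic hearts (log2 fold changes 0.67 ± 0.049 and 0.71 ± 0.049, adjusted p = 1.4e-05 and 6.6e-06). A second scaffold gene of this family, Ppp1r3b, rose in GRK-Inh-transgenic hearts alone (0.45 ± 0.084, adjusted p = 0.00503), but not without GRK-Inh array 1. The gene of the glycogen-binding protein Stbd1 fell in RKIP-transgenic hearts (-0.58 ± 0.11, adjusted p = 0.00689), a call lost without B6 array 2, and the lysosomal glucosidase gene Gaa rose there (0.40 ± 0.075, adjusted p = 0.00728), a call lost without RKIP array 1 or B6 array 2. Against the GRK-Inh line, Stbd1 was lower in RKIP-transgenic hearts (-0.58 ± 0.11, adjusted p = 0.00814, lost without GRK-Inh array 1), and so was Ppp1r3b (-0.35 ± 0.084, adjusted p = 0.0278, lost without any 1 of the 4 arrays). Phkg1, a catalytic subunit of phosphorylase kinase, was called between the lines (higher in RKIP-transgenic hearts, 0.75 ± 0.16, adjusted p = 0.0146), a call lost without RKIP array 2 or GRK-Inh array 1.

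Of 8 further glycolytic genes only Tigar was called against control. Its product lowers fructose 2,6-bisphosphate, and it rose in both lines (0.40 ± 0.077, adjusted p = 0.00781 and 0.43 ± 0.077, adjusted p = 0.00403), the second call being lost with its probe sets averaged. None of the 4 further glucose carriers, the 7 genes of the pentose phosphate pathway and the 10 of the NADH shuttles was called against control by limma. At an unadjusted p under 0.05 there were 1, 1 and 0 in RKIP-transgenic and 1, 1 and 4 in GRK-Inh-transgenic hearts. Their genes of highest signal, Slc2a12, Tkt and Mdh1, had log2 fold changes of 0.021, 0.0035 and -0.018 in RKIP-transgenic hearts and 0.11, -0.14 and -0.084 in GRK-Inh-transgenic hearts. Between the lines the transaldolase gene Taldo1 was lower in RKIP-transgenic hearts (-0.23 ± 0.061, adjusted p = 0.0408), a call lost without any 1 of the 4 arrays. Of 7 hexosamine genes 1 rose in each line, Oga, which encodes the enzyme that removes O-GlcNAc (0.30 ± 0.049 and 0.32 ± 0.049). With the gene's probe sets averaged it did not pass in either line (adjusted p up to 0.527 and 0.359 over the alternatives).

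Of 17 genes of insulin signalling and Slc2a4 traffic, 2 rose and 3 fell in RKIP-transgenic hearts, and 2 rose and 2 fell in GRK-Inh-transgenic hearts. Txnip, whose product lowers glucose uptake and is induced by glucose, fell in both lines, from 9741 and 10093 in control to 7859 and 7576 in RKIP-transgenic and 6684 and 6558 in GRK-Inh-transgenic hearts (log2 fold changes -0.36 ± 0.041 and -0.58 ± 0.041, adjusted p = 0.000293 and 7.1e-06). Its relative Arrdc4 fell in RKIP-transgenic hearts (-0.65 ± 0.17, adjusted p = 0.0304), a call lost without RKIP array 2 or either control array. The insulin receptor substrate gene Irs1 fell in RKIP-transgenic hearts (-0.50 ± 0.068, adjusted p = 0.000994). Pik3r1, a regulatory subunit of phosphoinositide 3-kinase, rose in both lines (0.30 ± 0.049 and 0.51 ± 0.049), and the kinase gene Akt1 fell in GRK-Inh-transgenic hearts (-0.41 ± 0.080, adjusted p = 0.00646), but not without B6 array 1. Between the lines Irs1 and Pik3r1 were lower and Txnip was higher in RKIP-transgenic hearts (log2 -0.35, -0.21 and 0.22). All 3 of these calls were lost without RKIP array 1 or GRK-Inh array 2, and that of Pik3r1 also without GRK-Inh array 1.

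Of 8 subunit and activator genes of the AMP-activated kinase, a sensor of low energy, 1 rose in RKIP-transgenic hearts, and 1 rose and 1 fell in GRK-Inh-transgenic hearts. These counts are 12.5% and 25% of the list, beside 10.8% and 13.1% of all genes tested. The genes called were Prkab2 (0.31 ± 0.076, adjusted p = 0.0249), Prkag1 (0.36 ± 0.092, adjusted p = 0.0248) and Prkab1 (-0.59 ± 0.13, adjusted p = 0.0120), and leaving out GRK-Inh array 2 or B6 array 2 ended both of the GRK-Inh calls. The call of Prkag1 was also lost without B6 array 1, and that of Prkab2 without RKIP array 2 or either control array. Between the lines Prkab1 was the higher in RKIP-transgenic hearts (0.51 ± 0.13, adjusted p = 0.0350), a call lost without RKIP array 1, GRK-Inh array 1 or GRK-Inh array 2.

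**Figure D4:**
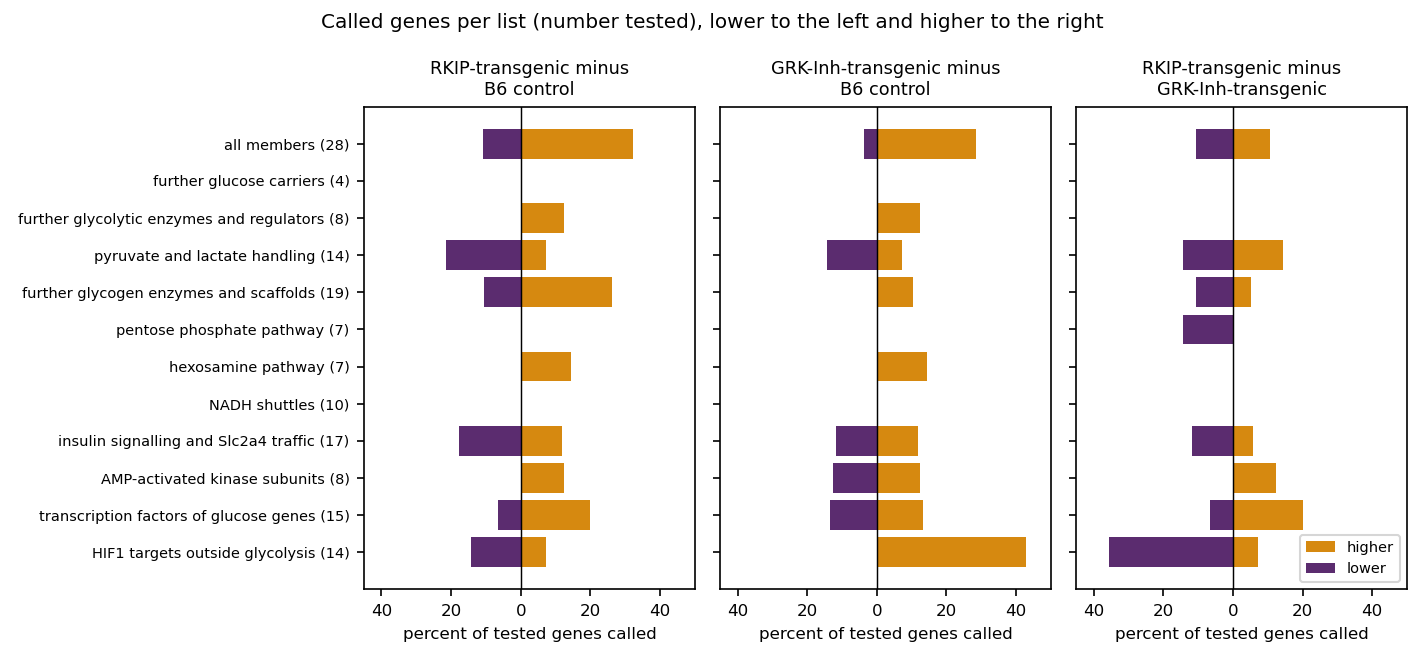
Percentage of the tested genes of each list called lower (left) and higher (right) in the 3 comparisons, with the number tested in parentheses, for the members and 11 lists of neighbouring pathways. Among the members calls are mostly to the right against control, the NADH shuttles and further glucose carriers have none, and the HIF1 targets outside glycolysis have 6 of 14 higher in GRK-Inh-transgenic hearts and 1 higher and 2 lower in RKIP-transgenic hearts.

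Of 15 transcription factor genes with known glycolytic or glucose-responsive targets, 3 rose and 1 fell in RKIP-transgenic and 2 rose and 2 fell in GRK-Inh-transgenic hearts. Mlxipl, the gene of the glucose-responsive factor ChREBP, rose in RKIP-transgenic hearts (0.52 ± 0.12, adjusted p = 0.0178), a call lost without RKIP array 2 or either control array. Klf15, a regulator of Slc2a4 and of amino acid use, rose in both lines (0.47 ± 0.094, adjusted p = 0.00944 and 0.36 ± 0.094, adjusted p = 0.0302). These calls were lost without RKIP array 1 or B6 array 1, and without either GRK-Inh array or B6 array 1. Esrrg, an orphan receptor of oxidative metabolism, rose too (0.31 ± 0.066, adjusted p = 0.0135 and 0.23 ± 0.066, adjusted p = 0.0459). Its call in RKIP-transgenic hearts was lost without RKIP array 2 or B6 array 2, and that in GRK-Inh-transgenic hearts without any 1 array of either group. Hif1a fell in GRK-Inh-transgenic hearts (from 3186 ± 196 to 2462 ± 175, mean signal ± SD, -0.37 ± 0.064, adjusted p = 0.00338), and averaging the gene's probe sets ended this call (adjusted p 0.00251 to 0.215 over the alternatives). Mef2c, a muscle transcription factor gene, also fell there (-0.29 ± 0.070, adjusted p = 0.0180), a call lost without either GRK-Inh array or B6 array 2. Between the lines Hif1a, Mlxipl and Mef2c were higher in RKIP-transgenic hearts (log2 0.45, 0.42 and 0.30), the first of which was lost with the probe sets averaged. The call of Mlxipl was lost without any 1 of the 4 arrays, and that of Mef2c without RKIP array 2 or either GRK-Inh array.

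Of 14 targets of HIF1 outside glycolysis, 6 rose in GRK-Inh-transgenic hearts, where 13.1% of all genes were called, and 1 rose and 2 fell in RKIP-transgenic hearts, where 10.8% were. Between the lines, where 8.84% of all genes were called, 1 was higher and 5 were lower in RKIP-transgenic hearts. The numbers called were 5 to 7, 1 to 3 and 3 to 7 over the alternatives. Ddit4, a stress-induced inhibitor of mTORC1, gave 1136 and 1107 in GRK-Inh-transgenic, 573 and 559 in RKIP-transgenic and 487 and 491 in control hearts (GRK-Inh-transgenic against control 1.12 ± 0.076, adjusted p = 5.3e-06). The collagen hydroxylase genes P4ha1 and P4ha2 rose by 1.08 and 0.70 there (adjusted p = 5.2e-05 and 0.000789). Between the lines Ddit4, P4ha1 and Anxa2 were lower in RKIP-transgenic hearts (log2 -0.93, -1.26 and -0.48). Bnip3, a mitophagy gene, rose in both lines and by more in RKIP-transgenic hearts (0.65 ± 0.040 and 0.32 ± 0.040, difference 0.33 ± 0.040, adjusted p = 0.000588). Egln3 and Higd1a fell in RKIP-transgenic hearts (-0.49 ± 0.086 and -0.23 ± 0.037, adjusted p = 0.00477 and 0.00297), the second call being lost with its probe sets averaged. In the GRK-Inh line Anxa2 rose (0.38 ± 0.058, adjusted p = 0.00141). Averaging its probe sets ended its calls. Of the members, Slc2a1, Pdk1, Ldha, Pgk1, Hk2 and Gapdh are textbook targets of the same factor, though not a full list of them. Slc2a1, Pdk1, Hk2 and Gapdh rose in RKIP-transgenic hearts and Slc2a1 and Pdk1 in GRK-Inh-transgenic hearts. Of Aldoa, Tpi1 and Pkm, also counted among its targets, Tpi1 fell in RKIP-transgenic hearts and no other call against control was made. No share of targets can be read from these names.

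Averaging a gene's probe sets also ended the calls given above of Arrdc4, Prkab2 and Esrrg in RKIP-transgenic hearts, of Akt1, Prkag1 and Esrrg in GRK-Inh-transgenic hearts and of Pik3r1 between the lines.

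Markers of other heart cells moved beside these values. Over all genes tested, 10.8% were called in the RKIP-transgenic and 13.1% in the GRK-Inh-transgenic comparison. Of 8 fibroblast markers, 7 fell in RKIP-transgenic and 8 in GRK-Inh-transgenic hearts, and their summed signals were 40217 to 40522, 37572 to 38046 and 53438 to 55973 in the RKIP, GRK-Inh and control groups. Of 8 endothelial markers, 3 fell in each line, with sums of 23747 to 24759, 25206 to 25693 and 28108 to 29138. Most of each sum was Fabp4, at 18297 and 19203, 18997 and 19522 and 22680 and 21564. In GRK-Inh-transgenic hearts 3 of the 8 had a positive log2 fold change, and Pecam1 and Kdr lay above both control arrays. In RKIP-transgenic hearts all 8 were negative. Macrophage markers summed to 11563 to 11921, 10336 to 10422 and 12118 to 12563, and 1 of 8 fell in RKIP-transgenic and 3 of 8 in GRK-Inh-transgenic hearts. The 4 white adipocyte markers with a probe set summed to 1170.5 to 1204 in RKIP-transgenic hearts, against 3561 to 4195 in GRK-Inh-transgenic and 3604 to 3777 in control hearts. In the RKIP-transgenic comparison 2 of the 3 tested adipocyte markers fell, and Lep was near 0 on every array, at 1.89 to 19.9. Of the atrial markers, 2 of 4 tested fell in RKIP-transgenic hearts (sums of 63841 to 64011, against 70372 to 70941 in control hearts) and limma called none in GRK-Inh-transgenic hearts (1 at an unadjusted p under 0.05). Pfkp, Pgam1, Pkm, Hk1 and Slc2a1 are also expressed outside cardiomyocytes, and the part of these cell types in their values was not tested. In RNA of whole hearts, fewer cells of a type and less RNA per cell cannot be told apart.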

How the data were processed

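Heart RNA was hybridised to 6 Affymetrix mouse arrays, 2 per group. The authors deposited an intensity per probe set, a linear signal made with GCOS (version not given) per the submitters' processing notes. Groups and replicate numbers came from the sample titles. The platform annotation gave 34958 of the 45101 probe sets a single symbol, and the brightest of a gene's probe sets stood for it. The 64 control probe sets stayed out of the filter level, but those with a single symbol could stand for a gene, as Gapdh's did. Signals were taken as log2(signal + 50) without further normalization, and genes with a mean of at least 6.65 (a signal of 50.2), the median of all non-control probe sets, were tested. One limma 3.58.1 model (R 4.3.3) held all 6 arrays, with 3 residual and 7.63 prior degrees of freedom and a variance trend. Fold changes are on the log2(signal + 50) scale, which understates the change of dim genes. Arrays give no counts, and their number limits the precision. The procedure was tested only on simulated arrays drawn with the model's own spread, with planted changes larger than those of most members. Smaller changes were not covered. Every member is accounted for, per neighbouring list and comparison up to 3 called genes of largest change (or the brightest, where none was called) are named, and the other named genes were chosen after their values were seen. The members, lists and rules were chosen with earlier results of these data known. Alternatives were arrays quantile-normalized or shifted to one median; an offset of 16 or of 200; testing every gene or only those above the upper quartile (percentile 75); each probe set alone, or a gene's probe sets averaged; moderation without the trend, or robust; a fit of only the 2 groups compared; the replicate number as a block; an adjusted p under 0.01 or 0.10, each array left out and, chosen after seeing the data, control probe sets left out. With each probe set alone, a gene's call was still read from its brightest probe set. Averages over a gene's probe sets included those below the filter, which can pull the average towards 0. Promoters came from RefSeq (GRCm38.p6), and 30 of the 31 genes matched by symbol. Python 3.11.15 with matplotlib 3.10.9 drew the figures.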

Additional observations from a re-analysis of the deposited data

How the results depend on the processing

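Of the 27 calls of members over the 3 comparisons, 3 were kept under every alternative and 24 were lost under at least 1, and none changed direction. Of the 57 values not called, 11 passed under at least 1, not counting the looser cutoff of 0.10. A variance without trend left 2 called members in the RKIP-transgenic, 2 in the GRK-Inh-transgenic and 1 in the comparison between the lines, against 12, 9 and 6. An adjusted p under 0.01 left 6, 4 and 3. Without 1 array the counts were 6 to 7, 3 to 5 and 2 to 5; the lone array of a group is then assumed to vary like the other groups. With the replicate number as a block they were 12, 9 and 6, the same members. The arrays share only a number, since same-numbered arrays did not deviate together (correlations of -0.035 to 0.026). Of the related genes named, the block ended the calls of Taldo1 and Mlxipl between the lines and of Esrrg in GRK-Inh-transgenic hearts. Counts under the other alternatives stayed within 1.5 times the main counts. Over all genes, 1221, 1474 and 995 were called in the 3 comparisons, against 293, 726 and 251 without the variance trend, 523, 771 and 418 at an adjusted p under 0.01, and 1801, 2244 and 1512 at one under 0.10. With probe sets averaged they were 758, 1053 and 619, without a filter 845, 1109 and 619, and without 1 array 625 to 744, 904 to 923 and 476 to 544. Offsets of 16 and 200 left each count of members as it was.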
